A study of Mus musculus with 12 samples.

Results

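Fc receptors are the proteins through which macrophages bind the constant part of antibodies, and 6 genes of this family were described in perivascular macrophages of the mouse brain, which sit beside cerebral blood vessels. The members were taken by symbol from the 17358 genes of the deposited table, and all 6 were found: the IgG receptors Fcgr1, Fcgr2b, Fcgr3 and Fcgr4, their signalling chain Fcer1g and the neonatal Fc receptor Fcgrt. Libraries came from aged C57BL mice of 18 months (n = 5) and from young adult C57BL mice of 3 months (n = 7), with no allele or treatment named for either group. The design names biological replicates and an age comparison, without the number of animals or cells behind each library, the sex or the sort marker, so a p-value reflects only how far the libraries scatter, which may be technical in part.

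Receptors for IgG either activate or restrain the cell. The activating receptors Fcgr1, Fcgr3 and Fcgr4 need the common gamma chain encoded by Fcer1g, whose cytoplasmic ITAM (a tyrosine motif that recruits the kinase Syk) starts phagocytosis and cytokine release, whereas Fcgr2b carries an inhibitory ITIM that recruits the lipid phosphatase SHIP1, encoded by Inpp5d. The balance between both kinds sets the threshold at which immune complexes activate a macrophage. FcRn, the product of Fcgrt paired with beta-2 microglobulin (B2m), works differently: it binds IgG in acidic endosomes and returns it to the cell surface. In the brain, Fc receptors of macrophages along vessels and of microglia are known as a route by which antibodies against deposited proteins reach phagocytes.

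Library totals ranged from 23214836 to 30628787 estimated counts, so that a floor of 3 counts lay between 0.0979 and 0.129 CPM, counts scaled to a common library total. Of 11 markers of perivascular macrophages 10 were detected in every library, and Siglec1 had no count in young library 7 (34.0 to 74.3 normalised CPM in aged libraries against 0 to 46.4 in young ones). Their sum lay between 10671 and 17082 normalised CPM in aged and between 11360 and 21002 in young libraries. The 11 microglia markers, a second cell type that expresses Fc receptors, summed to between 4011 and 6088 normalised CPM in aged and between 3810 and 7498 in young libraries. Marker lists of other Fc receptor-bearing cells were lower but not all at 0. The 8 neutrophil markers summed to 28.6 to 179 normalised CPM in aged and 44.6 to 145 in young libraries, led by Cxcr2 (5.46 to 121 in aged, 21.0 to 56.6 in young) and Csf3r, with Ly6g at most 0.050. Monocyte markers, led by Ccr2, summed to 0.304 to 54.9 in aged and 0.25 to 75.4 in young libraries, and those of B cells, led by Cd79b, to 0.1 to 29.7 in aged and 4.11 to 89.9 in young ones. T and NK cell markers reached sums of 5.15 in aged libraries, led by Cd3d, and 39.8 in young libraries, led by Nkg7. The 5 mast cell and basophil markers that were measured reached 0.287 in aged and 0.132 in young libraries. The part of these cells in the results was not tested. Aged libraries 1, 3 and 4 stood apart from all others on the first principal component, which held 15.5% of the variance. The fold changes of Fcgr2b and Fcgrt and the ratios among the IgG receptors and Fcer1g are given with and without them. The ratio of Fcgrt to B2m and the values of pathway genes include them. The choroid plexus list summed to 201.2 to 1110 normalised CPM in aged and 59.4 to 147 in young libraries, without overlap. Most of that sum was Ttr, at 176 to 1051 in aged and 55.3 to 146 in young libraries. Only Ttr separated the groups by itself. Folr1, Kl, Clic6, Kcnj13 and Prlr averaged higher in aged libraries and Otx2 lower, each with overlap. Kcnj13 ranged from 0.033 to 72.9 in aged and from 0 to 2.62 in young libraries. The dendritic cell list summed to 1304 to 2522 in aged and 419 to 2180 in young libraries. Nearly all of that sum was Cd209a, with means of 1947 in aged and 916 in young libraries. The young libraries were split: libraries 1 and 2 had 2164 and 1866, inside the aged range of 1272 to 2503. Young libraries 3 to 7 had 405 to 496. The other dendritic cell markers were low, with highest values of 0.15 for Flt3, 0.034 for Clec9a, 21.6 for Xcr1 and 27.9 for Zbtb46. The part of choroid plexus or dendritic cells in the results was not tested.

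The genes of the low-affinity IgG receptors lie together on chromosome 1 of GRCm38, Fcgr2b from 170960558 to 170976071, Fcgr4 from 171018926 to 171029761 and Fcgr3 from 171051169 to 171065915, with Fcer1g close by from 171229572 to 171234349. Fcgr1, the high-affinity receptor, lies on chromosome 3 from 96282909 to 96293969, and Fcgrt on chromosome 7 from 45092993 to 45103822. The coding sequences of Fcgr2b and Fcgr3 were 83.9% identical over 784 aligned bases, against 63.5% for Fcgr2b and Fcgr4 and 63.1% for Fcgr3 and Fcgr4. In their coding exon 4, which has 255 bases in both genes, 250 bases were identical (98.0%). A stretch of 150 bases of that exon is shown because the values of both genes rest on telling such sequences apart; it lies on the minus strand at chr1:170966521-170966670 (Fcgr2b) and chr1:171054014-171054163 (Fcgr3), and capitals mark the 2 bases that differ.
Fcgr2b: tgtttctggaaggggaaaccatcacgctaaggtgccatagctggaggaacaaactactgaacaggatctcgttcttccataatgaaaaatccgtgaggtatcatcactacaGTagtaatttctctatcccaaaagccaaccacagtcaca
Fcgr3: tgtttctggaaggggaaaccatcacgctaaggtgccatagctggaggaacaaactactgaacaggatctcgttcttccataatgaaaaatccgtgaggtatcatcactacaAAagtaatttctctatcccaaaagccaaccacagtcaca
The transcripts of both genes shared 166 stretches of 50 bases, 9.58% of those of Fcgr3 and 2.92% of those of Fcgr2b, and no such stretch was shared with Fcgr1 or Fcgr4. The estimated counts of Fcgr2b and Fcgr3 were fractional in 12 of 12 libraries, while those of Fcgr1, Fcgr4, Fcer1g and Fcgrt were whole in every library. Values of Fcgr2b and Fcgr3 are uncertain to the extent that reads were divided between them. An antisense gene, Gm38204, overlaps 155 exonic bases of Fcgr2b (2.68%), and reads carried no strand; no other member overlapped an exon of another annotated gene.

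Per transcript length, the common chain and the pair Fcgr3 and Fcgr2b were among the most abundant transcripts of these cells. Levels are given as FPKM (fragments scaled to transcript length and library size). Fcer1g averaged 10838 FPKM over all 12 libraries (SD 2416), the 12th highest of 17358 genes. Fcgr3 followed at 2287 FPKM (SD 825, rank 39) and Fcgr2b at 2163 FPKM (SD 366, rank 43). Fcgrt averaged 137 FPKM (SD 81.4, rank 762), Fcgr1 132 FPKM (SD 38.7, rank 785) and Fcgr4 46.1 FPKM (SD 22.2, rank 1647). Fcer1g exceeded Fcgr3 in 12 of 12 libraries, Fcgr2b exceeded Fcgrt in 12 of 12 and Fcgr1 exceeded Fcgr4 in 12 of 12. The other neighbours in this order did not differ beyond their spread: Fcgr3 was above Fcgr2b in 6 of 12 libraries, 1 of 5 aged and 5 of 7 young, and Fcgrt was above Fcgr1 in 5 of 12, 0 of 5 aged and 5 of 7 young.

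**Figure D1:**
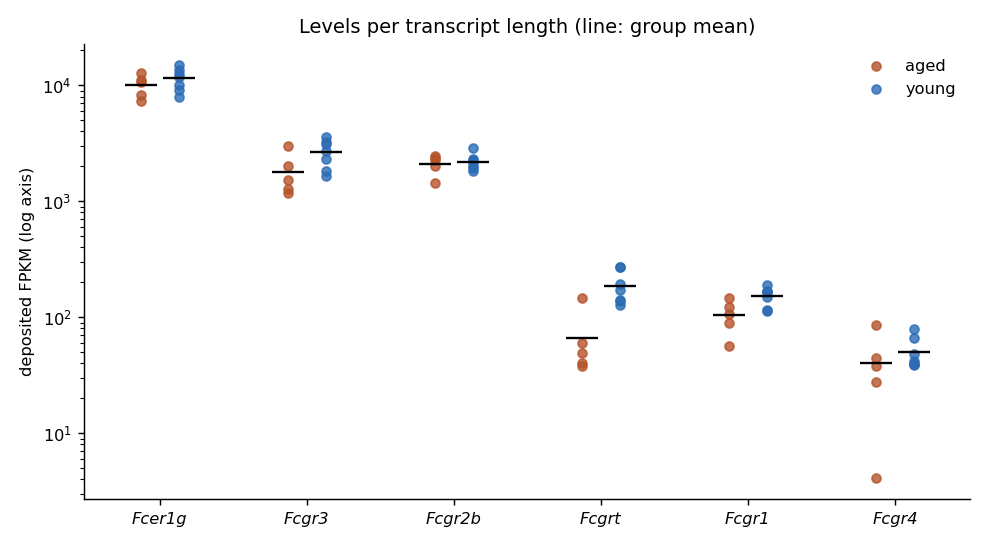
Deposited FPKM of the 6 genes (log axis) in each aged (n = 5) and young (n = 7) library, ordered by the mean over all libraries, with lines at the group means. Fcer1g lies at 7287 FPKM or above in every library, Fcgr3 and Fcgr2b overlap, and Fcgr4 spreads from 4.09 to 85.5 FPKM.

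None of the 6 genes passed the threshold (Benjamini-Hochberg adjusted p under 0.05) in the edgeR quasi-likelihood comparison of aged with young libraries, in which 1 of the 9550 tested genes, or 0.0105%, was called. At an unadjusted p under 0.05 the test held 1 of the 6, Fcgrt, against 5.97% of all tested genes. DESeq2 called 1 of the 6, again Fcgrt, where it called 1.3% of genes. All 6 passed the filter on low counts. Fcgr2b had a positive log2 fold change and the other 5 a negative one, with a median of −0.32 against −0.01 over all tested genes. RNA was measured in bulk, so fewer expressing cells and less RNA per cell cannot be told apart.

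**Figure D2:**
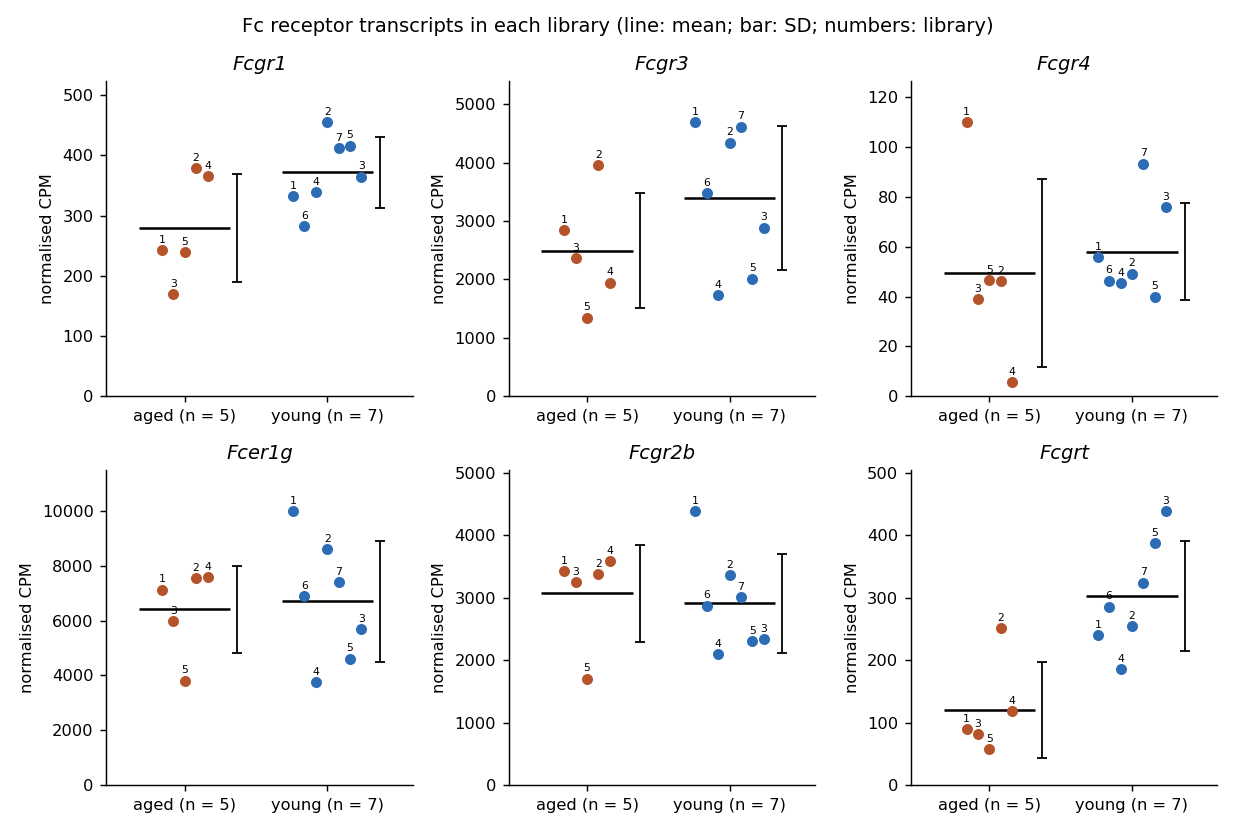
Normalised CPM of each gene in every aged (n = 5) and young (n = 7) library, with points numbered by library, lines at the means and bars of 1 SD. The groups overlap for all 6 genes, and for Fcgrt 4 of 5 aged libraries lie below every young one.

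Fcer1g, the common chain on which the activating receptors depend for surface expression and signalling, had 7134, 7544, 5985, 7588 and 3812 normalised CPM in aged libraries 1 to 5, and a lowest value of 3754, a median of 6893 and a highest value of 10011 normalised CPM in young libraries. Every aged library lay inside the young range. The means were 6413 ± 1591 in aged and 6711 ± 2204 in young libraries (SD, n = 5 and 7). By edgeR the log2 fold change of −0.07 ± 0.25 (SE) had an interval of 2 SE from −0.56 to 0.43 and did not pass (adjusted p = 0.999). The sign turned positive without aged library 5 (0.05) or young library 1 (0.02).

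Fcgr1, the high-affinity receptor also called CD64, had 242, 379, 169, 365 and 240 normalised CPM in aged libraries 1 to 5, against a lowest of 282, a median of 365 and a highest of 455 normalised CPM in young libraries. In aged libraries 1, 3 and 5 it lay below every young library, and in aged libraries 2 and 4 within the young range. Means were 279 ± 89.8 in aged and 372 ± 59.6 normalised CPM in young libraries (SD). The log2 fold change of −0.41 ± 0.23 (SE) did not pass (edgeR unadjusted p = 0.0941, adjusted p = 0.984). Its direction was negative under all 23 alternatives, from −0.60 to −0.26.

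Fcgr3, the most abundant of the activating receptors and a low-affinity receptor for IgG complexes, had 2841, 3961, 2369, 1947 and 1346 normalised CPM in aged libraries 1 to 5. In young libraries the lowest value was 1732, the median 3474 and the highest 4696 normalised CPM. The ranges overlapped broadly: 1 aged library lay below all young ones and 3 young libraries lay above all aged ones. The log2 fold change was −0.45 ± 0.30 (SE, edgeR adjusted p = 0.999), negative under all 23 alternatives (−0.67 to −0.30). Fcgr3 made up most of the summed FPKM of the activating receptors Fcgr1, Fcgr3 and Fcgr4, with a median share of 92.1% in aged and 93.6% in young libraries.

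Fcgr4, a receptor for IgG2a and IgG2b complexes, was the least abundant member. Aged libraries 1 to 5 held 2736, 1366, 780, 120 and 1394 counts, or 110, 46.1, 39.0, 5.75 and 46.7 normalised CPM, and young libraries had a lowest of 40.0, a median of 49.2 and a highest of 93.4 normalised CPM. Aged libraries thus held both the highest value of all, in library 1, and the lowest, in library 4. The log2 fold change was −0.23 ± 0.55 (SE, edgeR adjusted p = 0.999); it was 0.05 without aged library 4 and −0.77 without aged library 1.

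Fcgr2b, the inhibitory receptor and the only ITIM-bearing member, had 3427, 3382, 3254, 3591 and 1704 normalised CPM in aged libraries 1 to 5, and a lowest of 2095, a median of 2874 and a highest of 4393 normalised CPM in young libraries. Aged libraries 1 to 4 differed little among themselves, and aged library 5 lay below all others. Means were 3072 ± 774 in aged and 2912 ± 794 normalised CPM in young libraries (SD), with a log2 fold change of 0.08 ± 0.23 (SE, edgeR adjusted p = 0.999) and an interval of 2 SE from −0.37 to 0.53. The sign was negative without aged libraries 1, 3 and 4 (−0.19) and in FPKM (−0.07, where the median of all genes was −0.17 with a pseudocount of 1).

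**Figure D3:**
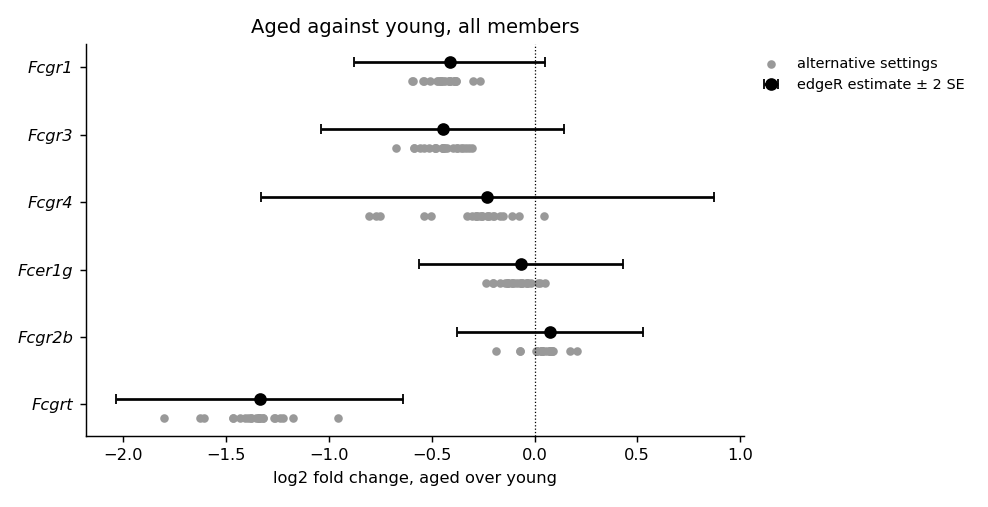
Log2 fold change, aged over young, of each gene by edgeR with bars of 2 SE (black) and under the 23 alternative settings (grey). Only the interval of Fcgrt, from −2.04 to −0.64, lies wholly on one side of 0, and Fcgr4 has the widest interval.

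The balance of activating to inhibitory receptors was described within each library, since a ratio of 2 genes of the same library does not depend on its scaling. The ratio of Fcgr3 to Fcgr2b in FPKM was 0.858, 1.21, 0.756, 0.563 and 0.819 in aged libraries 1 to 5, against a lowest of 0.856, a median of 1.25 and a highest of 1.58 in young libraries. All 5 aged libraries lay below the young median and 3 below every young library, but the groups overlapped through aged libraries 1 and 2. On the log2 scale the means were −0.29 ± 0.40 in aged and 0.22 ± 0.32 in young libraries (SD), a difference of −0.51. Without aged library 2 that difference was −0.66, and without aged libraries 1, 3 and 4 it was −0.23.

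The ratio of Fcgr1 to Fcgr2b was lower on average as well, at −4.38 ± 0.56 in aged and −3.86 ± 0.44 in young libraries on the log2 scale (SD), with 4 of 5 aged libraries below the young median. Fcgr4 to Fcgr2b averaged −6.23 ± 1.73 in aged and −5.49 ± 0.53 in young libraries, where aged library 4 alone stood at −9.11. For Fcgr4 the difference of −0.74 rested on that library and was −0.02 without it, whereas aged library 1, at −4.78, lay above the young mean. For Fcgr1 the difference was −0.52 with all libraries, −0.33 without aged library 3 and −0.05 without aged libraries 1, 3 and 4. The common chain stood the other way: Fcer1g over the summed FPKM of Fcgr1, Fcgr3 and Fcgr4 was 5.05, 3.97, 5.10, 7.52 and 5.52 in aged libraries 1 to 5, and had a lowest of 3.29, a median of 4.15 and a highest of 4.47 in young libraries. Aged libraries 1, 3, 4 and 5 exceeded every young library and aged library 2 lay among them. Leaving out aged library 2, the only aged library inside the young range, removes the overlap by construction. The difference of the log2 means was then 0.49 in place of 0.38. Without aged libraries 1, 3 and 4 that difference was 0.20. The ratios without these libraries were added after seeing the data. All were formed from members chosen with earlier results known and were given no test, and those with Fcgr2b or Fcgr3 rest on divided reads.

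**Figure D4:**
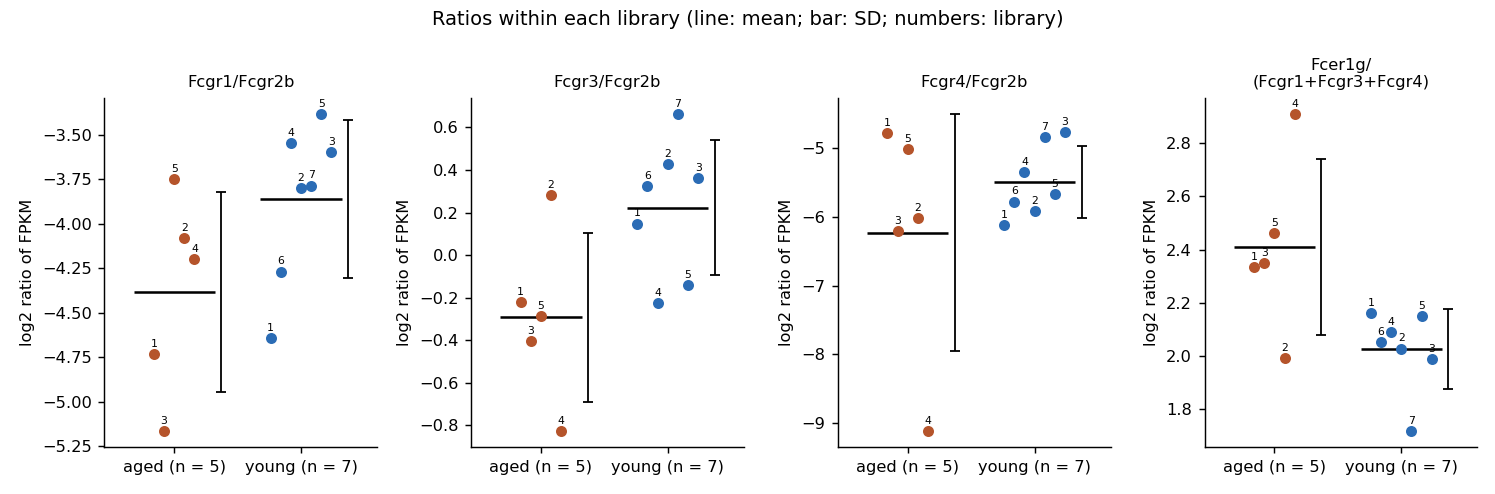
Log2 ratios of FPKM within each library for Fcgr1, Fcgr3 and Fcgr4 over Fcgr2b and for Fcer1g over the summed activating receptors, with lines at the means and bars of 1 SD in aged (n = 5) and young (n = 7) libraries. Aged library 2 lies among the young libraries in the Fcer1g panel, and aged library 4 is the lowest in the Fcgr3 and Fcgr4 panels and the highest in the Fcer1g panel.

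Fcgrt, the heavy chain of FcRn, showed the largest difference among the members. Its normalised CPM was 89.1, 252, 82.0, 118 and 57.0 in aged libraries 1 to 5, against a lowest of 185, a median of 286 and a highest of 439 in young libraries. Aged libraries 1, 3, 4 and 5 lay below all 7 young libraries, and aged library 2 lay within the young range. Means were 120 ± 77.0 in aged and 302 ± 88.0 normalised CPM in young libraries (SD, n = 5 and 7), with counts from 1639 to 7464 in aged and from 5933 to 13066 in young libraries. The log2 fold change was −1.34 ± 0.35 (SE), or 2.53-fold lower in aged libraries, and it did not pass over all genes tested (edgeR unadjusted p = 0.00137, adjusted p = 0.277). By p it ranked 45th of 9550 genes, and 8th among those with a negative fold change, and 11.1% of tested genes had a log2 fold change as low or lower.

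The call of Fcgrt depended on 1 library and on the tool. Without aged library 2 its log2 fold change was −1.80 and it passed as lower in aged libraries (edgeR adjusted p = 0.00992), in a fit that called 0.755% of genes, 0.141% as lower. DESeq2 also called it with all libraries (log2 fold change −1.38, DESeq2 adjusted p = 0.0179), where 0.612% of genes were called as lower. It was not called by edgeR with legacy=FALSE (adjusted p = 0.0699, 0.398% of genes called), by limma with voom weights (adjusted p = 0.242, 0.0209% called) or on leaving out any other library (0.242 to 0.618). It was −0.96 when aged libraries 1, 3 and 4 were left out (edgeR adjusted p = 1.0).

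B2m, the light chain that FcRn shares with MHC class I molecules, did not stand lower beside Fcgrt. It had 21494, 17908, 18036, 20616 and 10127 normalised CPM in aged libraries 1 to 5 and from 9807 to 19132 in young libraries, with a log2 fold change of 0.24 ± 0.21 (SE, edgeR adjusted p = 0.999). The ratio of Fcgrt to B2m in FPKM, in thousandths, was 1.97, 6.54, 2.14, 2.77 and 2.65 in aged libraries 1 to 5, against a lowest of 5.92, a median of 8.87 and a highest of 15.7 in young libraries. Aged libraries 1, 3, 4 and 5 again lay below every young library, and aged library 2 between the lowest and the next young library. This ratio was added after the values were seen. The 8 markers of endothelial cells, which also express FcRn, summed to 0 to 4.32 normalised CPM in aged and 0 to 36.2 in young libraries. Means were 0.919 in aged and 5.92 in young ones, and medians 0.067 and 0.074. The young maximum came from library 2, where Slco1a4 alone had 27.7. Flt1, Ly6c1 and Tek had no count in aged libraries, but at most 0.037 in young ones. Pecam1 and Cldn5 averaged higher in aged libraries (0.355 and 0.285) than in young ones (0.0134 and 0.0096). The part of these cells in the Fcgrt difference was not tested.

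Likeness of pattern across libraries was measured by the SD over the 12 libraries of the log2 ratio of normalised CPM + 1, which is 0 for genes in a fixed ratio. Of all pairs of members, Fcer1g and Fcgr2b kept the most constant ratio, with an SD of 0.16, against a median of 0.74 for Fcgr2b and the 2659 other genes of at least 50 normalised CPM. Fcer1g was the second gene on the list of Fcgr2b, after B2m (0.16) and before the glutathione peroxidase Gpx1 (0.17). On the list of Fcer1g, Fcgr2b had rank 6. Fcer1g and Fcgr3 had an SD of 0.33, and Fcgr2b and Fcgr3 0.43. Genes of a library share its depth and RNA quality, so these are descriptions without a test. Members averaged 6587 (Fcer1g), 3020 (Fcgr3), 2978 (Fcgr2b), 333 (Fcgr1), 226 (Fcgrt) and 54.5 (Fcgr4) normalised CPM. The genes compared were not matched for abundance, and its part in these SDs was not tested.

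Genes nearest to Fcer1g itself were Ndufa2, a subunit of respiratory complex I (0.14), the lysozyme Lyz1 (0.15) and the transcription elongation factor subunit Elob (0.15). Nearest to Fcgr3 were the ferritin light chain Ftl1 (0.19), the proton pump subunit Atp6v1f (0.22) and the lysozyme Lyz2 (0.24). Fcgr1 was nearest to Rnf7 (0.28), Gapdh (0.29) and Spg21 (0.29). Fcgr4 and Fcgrt had no gene as close: the nearest were Psme1, a proteasome activator subunit (0.39), Sdf4 (0.44) and Rbbp4 (0.52) for Fcgr4, and the lysosomal protease Ctsa (0.48), Fis1 (0.49) and the complex III subunit Uqcrc1 (0.49) for Fcgrt. Among the other members, Fcgrt came nearest to Fcgr1 (0.70), and its SD with Fcgr2b was 0.99.

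The promoter windows searched for the 3 activating receptors held the letters GAGGAA, a form of the motif bound by PU.1. PU.1 is the macrophage lineage factor encoded by Spi1. In windows from 250 bases before to 50 after each start site (RefSeq, GRCm38.p6, found for all 6 genes), the letters GAGGAA were searched on both strands, and so was TTCNNNGAA, the core bound by STAT factors. The windows of Fcgr1, Fcgr3 and Fcgr4 held GAGGAA and those of Fcgr2b, Fcer1g and Fcgrt did not, while 28.3% of all 32851 windows hold it. This split holds for the exact 6 letters searched only. For Fcgr3, on the minus strand, both listed starts lie inside the gene, whose outer end is at 171065915. The region before that outer end was not searched. The shorter letters GGAA stand in the windows of Fcgr2b, Fcer1g and Fcgrt too. TTCNNNGAA was found in the window of Fcgr1, where it does not overlap GAGGAA, and in 8.3% of all windows. The 120 bases before the start are shown for the receptors with a match, since the match begins 55, 6 and 22 bases before the start in Fcgr1, Fcgr3 and Fcgr4; capitals mark the matches, which read TTCCTC where GAGGAA lies on the other strand. They lie at chr3:96293970-96294089 (minus strand) for Fcgr1, chr1:171059404-171059523 (minus strand) for Fcgr3, the first of 2 listed starts, and chr1:171018806-171018925 (plus strand) for Fcgr4.
Fcgr1: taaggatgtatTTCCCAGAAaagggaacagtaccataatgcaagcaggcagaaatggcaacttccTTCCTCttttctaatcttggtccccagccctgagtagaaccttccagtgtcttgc
Fcgr3: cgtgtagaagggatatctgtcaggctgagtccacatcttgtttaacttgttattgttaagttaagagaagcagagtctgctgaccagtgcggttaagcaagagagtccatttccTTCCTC
Fcgr4: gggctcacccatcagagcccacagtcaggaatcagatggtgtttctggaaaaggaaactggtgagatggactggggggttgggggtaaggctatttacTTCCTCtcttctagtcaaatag
Spi1 itself averaged 85.6 ± 44.9 normalised CPM in aged libraries against 95.9 ± 69.5 in young ones (SD), with a log2 fold change of −0.17 (edgeR adjusted p = 0.999). A match describes letters only, and binding was not measured.

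The wider antibody receptor pathway was read from 6 lists with 101 genes, of which 76 were tested; values with ± are means and SD over 5 aged and 7 young libraries. None of them passed in either direction by edgeR (0 of 76, against 0.0105% of all genes), and at an unadjusted p under 0.05 there were 1 higher and 6 lower, against 3.85% higher and 2.12% lower among all tested genes. DESeq2 called none of them either. Their median log2 fold change was −0.11, against −0.01 over all tested genes.

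Of 13 receptors for other antibody classes and Fc receptor-like genes 3 were tested: Fcrls, Trim21 and Fcrlb. The IgE receptor chains Fcer1a and Ms4a2, the IgM receptor Fcmr, the IgA and IgM receptor Fcamr, Fcrl5, Fcrl6 and Fcrla each reached at most 0.132 normalised CPM in any library. The low-affinity IgE receptor Fcer2a reached 2.22 normalised CPM and the transport receptor Pigr 2.01. Fcrl1 ranged from 0 to 22.1 normalised CPM in aged and from 0 to 38.8 in young libraries, the cytosolic antibody receptor Trim21 from 0 to 34.5 in aged and from 0 to 21.2 in young, and Fcrlb from 0 to 1.41 in aged and from 0 to 8.59 in young. Fcrls, an Fc receptor-like protein known as a microglia marker, was the one abundant relative, with 743 ± 439 normalised CPM in aged libraries against 1137 ± 255 in young ones; its log2 fold change of −0.61 had an edgeR adjusted p of 0.821. Without aged library 2 it passed as lower (log2 fold change −1.05, adjusted p = 0.027).

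The list of signalling adaptors and of receptors that pair with the common chain held 6 tested genes, none with a positive fold change and none called (median −0.38). Their direction was not uniform beyond error, with Clec4d at −0.003 ± 1.25 and Hcst at −0.07 ± 0.43 on the log2 scale (SE). Clec4n, the fungal receptor dectin-2 that signals through Fcer1g, had 722 ± 89.1 normalised CPM in aged libraries against 1066 ± 203 in young ones (−0.56 on the log2 scale, edgeR unadjusted p = 0.00853, adjusted p = 0.448). Lilra5, an activating receptor of the leukocyte immunoglobulin-like family, was at 108 ± 50.1 in aged and 147 ± 42.1 in young libraries. Tyrobp, the ITAM adaptor DAP12 of TREM2, averaged 3806 normalised CPM in aged libraries against 4753 in young ones (edgeR adjusted p = 0.999).

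Downstream of the activating receptors 23 of 28 genes were tested, with 9 positive and 14 negative fold changes, none called (median −0.15). Rac2, a GTPase that drives actin and the oxidative burst, had 38.6 ± 29.0 normalised CPM in aged libraries against 106 ± 25.8 in young ones (−1.46 on the log2 scale, edgeR adjusted p = 0.399). The kinase Tec was at 53.0 ± 27.6 in aged and 74.0 ± 38.9 in young libraries. The GTPases Rac1, at 619 ± 190 in aged and 529 ± 130, and Cdc42, at 965 ± 221 in aged and 940 ± 244 in young libraries, had log2 fold changes of 0.23 and 0.04. Syk, the kinase recruited by the ITAM, averaged 14.9 normalised CPM in aged libraries against 16.6 in young ones (edgeR adjusted p = 0.999).

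On the inhibitory side 17 of 18 genes were tested, 7 positive and 10 negative, none called (median −0.02). Sirpa, the receptor for the signal CD47, had 91.8 ± 32.2 normalised CPM in aged libraries against 182 ± 48.5 in young ones (−0.99 on the log2 scale, edgeR adjusted p = 0.36), and the phosphatase Ptpn6 (SHP-1) at 95.4 ± 27.6 in aged and 145 ± 46.5 in young libraries. Inpp5d, the phosphatase that Fcgr2b recruits, was at 68.6 ± 35.6 in aged and 61.8 ± 20.6 in young libraries, and the inhibitory lectin Clec12a at 809 ± 148 in aged and 719 ± 124.

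Of 12 genes for the partner of FcRn and for recycling endosomes 9 were tested, 5 positive and 4 negative (median 0.22). Rab5a, a GTPase of early endosomes, had 94.8 ± 40.7 normalised CPM in aged libraries against 52.8 ± 35.3 in young ones, and Rab10 at 74.2 ± 37.1 in aged and 61.1 ± 37.4. Vps35, a retromer subunit, was at 104 ± 73.9 in aged and 152 ± 47.5 in young libraries, and Rab11b, a GTPase of recycling endosomes, at 36.5 ± 18.0 in aged and 59.6 ± 40.3. None was called.

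Regulators of Fc receptor expression, such as the interferon-gamma and interleukin-10 pathways, were divided 9 to 9 among 18 tested genes (median −0.04). The interferon-gamma receptor chain Ifngr2 had 291 ± 95.1 normalised CPM in aged libraries against 200.3 ± 24.8 in young ones (0.54 on the log2 scale, edgeR unadjusted p = 0.0387, adjusted p = 0.774), and the transcription factor Cebpa at 111 ± 47.9 in aged and 84.9 ± 40.2. The interleukin-10 receptor chain Il10ra had 35.8 ± 16.5 in aged libraries against 68.4 ± 17.1 in young ones (edgeR adjusted p = 0.842), and the interferon-induced factor Irf1 at 35.6 ± 37.7 in aged and 64.4 ± 34.0.

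**Figure D5:**
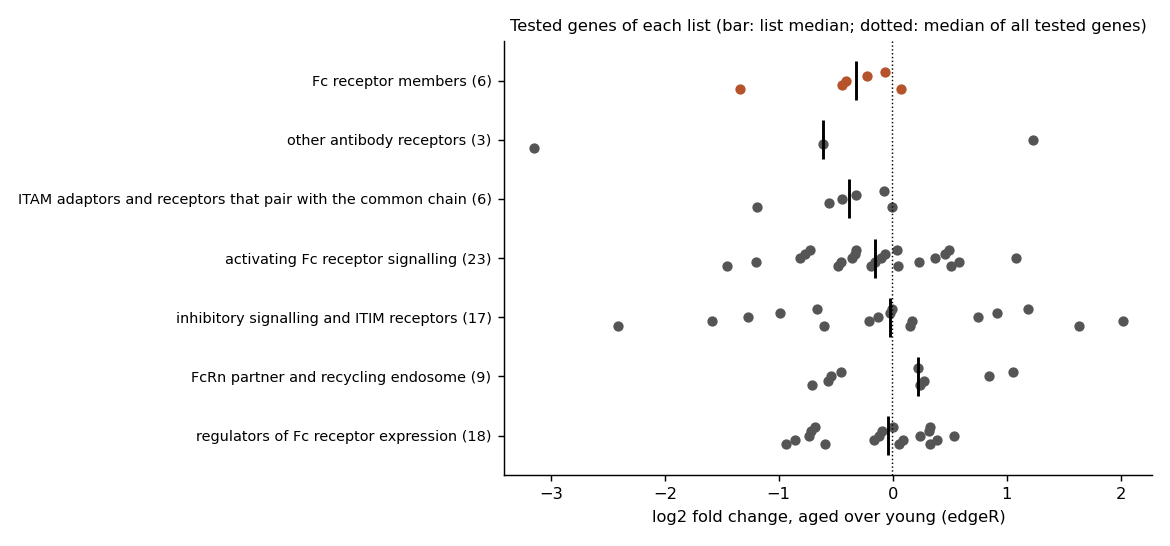
Log2 fold change, aged over young, of every tested gene in the Fc receptor family (top, orange) and the 6 pathway lists, with the number tested in brackets, bars at list medians and a dotted line at the median of all tested genes. No gene shown passed the adjusted threshold, and list medians run from −0.61 (other antibody receptors) to 0.22 (FcRn partner and recycling endosome).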

How the data were processed

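RNA of brain perivascular macrophages was amplified by SMART-seq2, which keeps no strand, per the labels' protocols. The submitters' processing notes name HISAT2 2.0.4, Bowtie2 2.2.5, RSEM 1.2.12, DESeq2 1.4.5 and GRCm38. The deposited table holds estimated counts (82.2% to 84.3% of values above 0 per library are exactly whole) and, without a named unit, values that were read as FPKM because their ratio to the deposited counts followed the inverse library total. The 6 genes, the pathway and marker lists and the tests were chosen with earlier results of these data known. Counts were rounded, filtered with filterByExpr (9550 of 17358 genes kept) and scaled by TMM. They were tested by the edgeR 4.0.16 quasi-likelihood test (R 4.3.3, Benjamini-Hochberg over all tested genes, threshold 0.05). The test was tried on simulated data with less spread than these libraries and larger fold changes than those of the members. Its behaviour at the spread of these data was therefore not tested. Normalised CPM was computed with the TMM-scaled library totals. Alternatives used DESeq2 1.42.0, limma 3.58.1, other scalings and left-out libraries. Floors cover counting error only. From each pathway list the text names called genes and, among those of at least 50 normalised CPM, the 2 largest positive and the 2 largest negative fold changes; Tyrobp, Syk, Spi1, B2m and the low receptors were added after their values were seen. Coding identity came from GENCODE M21 transcripts and promoters from RefSeq GRCm38.p6.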

Additional observations from a re-analysis of the deposited data

Results flagged for a closer look

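Of 20 groups of values examined for a sample far from its group, 2 held one, and chance gives about 1 in 20. Fcgr2b in aged library 5 had 1704 normalised CPM, below the 3254 to 3591 of the other aged libraries. Fcer1g over the summed FPKM of Fcgr1, Fcgr3 and Fcgr4 was 3.29 in young library 7, below the 3.97 to 4.47 of the other young libraries. The causes were not tested.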

How the results depend on the processing

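Over all genes edgeR called 1, against 13 without the filter, 38 with legacy=FALSE, 121 by DESeq2, 2 by limma with voom weights, 6 and 0 by limma on log2(FPKM + 1) and log2(FPKM + 0.1), 0 without aged libraries 1, 3 and 4, and 0 to 75 on leaving out each library in turn, the 75 without aged library 2. A fit with the replicate number as a block called 0, and so did the unblocked fit of the libraries numbered 1 to 5, added after seeing the data. The labels do not state that the numbers pair the libraries. Correlations of same-numbered deviations ran from −0.041 to 0.094, which cannot exclude shared handling of same-numbered libraries. Of the 6 Fc receptor genes 1 was called by DESeq2 and 0 to 1 on leaving out each library in turn, each time Fcgrt, at −1.38 by DESeq2 and −1.80 without aged library 2; over all left-out libraries Fcgrt ran from −1.80 to −1.17, and it was −0.96 without aged libraries 1, 3 and 4. Of the pathway genes 0 to 1 was called on leaving out libraries. Fcgr2b, at 0.08, was −0.0727 with either FPKM pseudocount and −0.19 without aged libraries 1, 3 and 4. Fcer1g, at −0.07, was 0.0147 with the replicate block and −0.167 to 0.0534 on leaving out libraries, and Fcgr4, at −0.23, ran from −0.772 to 0.0457 on leaving out libraries and was −0.54 with voom, −0.75 and −0.80 in FPKM and −0.50 with the block. The median of all genes moved to −0.13 with voom, −0.17 and −0.25 in FPKM and −0.15 with the block, relative to which Fcgrt was −1.33, −1.44, −1.37 and −1.31. Fcgr1 and Fcgr3 kept their direction under all 23 alternatives. Of the log2 ratios, Fcgr1 to Fcgr2b differed by −0.0527, Fcgr4 to Fcgr2b by −0.0258 and Fcer1g to the activating receptors by 0.2011 without aged libraries 1, 3 and 4; on leaving out each library they ran from −0.683 to −0.329, −1.0995 to −0.0158 and 0.259 to 0.489, and Fcgr3 to Fcgr2b from −0.658 to −0.381, settings added after seeing the data. The causes of these shifts were not tested.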
